A study of Mus musculus with 24 samples.

Results

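Control cells of skeletal muscle were compared between 2 settings: satellite cells taken from injured muscle and myoblasts kept in culture. The comparison uses 8 of the 16 RNA-seq samples of the series, which holds 24 samples in all, and takes every control library with RNA-seq values: 4 labelled Chd4fl/fl from injured muscle and 4 labelled AdGFP from culture. The study itself asks what the chromatin remodeller Chd4 does in these cells by deleting it, and the present libraries are those in which it was not deleted.

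Both groups came from C57BL/6 mice with Chd4fl/fl alleles, aged 2 to 4 months, so the floxed allele is shared by all 8 libraries. The injured group holds satellite cells sorted fresh from muscle at day 3 after injury with cardiotoxin, a snake toxin that destroys myofibres. Per the design text, limb muscle was minced and digested with enzymes, and the sort kept cells negative for SCA1 and CD45 and positive for α7-integrin and CD34. Whether these mice carried Cre, or were given the agent that activates it, could not be learned from the labels used here. The cultured group holds primary myoblasts grown from satellite cells of muscle that was not injured, on collagen-coated plastic with serum and fibroblast growth factor (FGF), and taken 72 hours after an adenovirus coding for green fluorescent protein. Injury, digestion and sorting, virus, medium and the table in which the values were deposited all differ between the groups together and cannot be told apart. No label ties a replicate to an animal or dish of its own. The spread given here is that between libraries, which may be technical.

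Satellite cells are the stem cells of skeletal muscle. They rest under the basal lamina of the fibre, and after injury they enter the cell cycle, pass through a myoblast state marked by Myod1 and then either differentiate and fuse or return to rest. In a dish they are activated by isolation itself and are usually kept proliferating with FGF and serum. They then lack the fibre, the lamina and the immune and connective tissue cells that surround them in a healing muscle.

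Values are RPKM, reads scaled by gene length and by the reads of the library. Each setting has a table of its own, so the 8 libraries were put on 1 scale by quantile scaling, which gives every library the same distribution of values. The difference of a gene is the mean of log2(scaled RPKM + 0.5) in injured muscle minus that in culture. It understates the change of low genes. A gene was considered if it reached 1 RPKM in at least 4 of the 8 libraries. It was called if the means differed by at least 4-fold and the lowest library of the higher group lay at least 2-fold above the highest of the lower group. No p-value is given, because the tables were normalized separately.

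Library sums were alike, at 286802 to 298222 RPKM in injured muscle and 288659 to 312845 in culture. RPKM gives no read totals, so the depth in reads is unknown and sets no confidence interval here. Transcripts of the mitochondrial genome held 9.17 to 12.5% of the sum in injured muscle and 2.90 to 6.18% in culture. In injured muscle 28824 to 29209 of 46078 genes were listed at 0, and in culture 23653 to 24566. Spearman correlations across genes were 0.969 to 0.981 between the injured libraries, 0.953 to 0.990 between the cultures and 0.729 to 0.773 between the settings. These correlations describe the libraries, since genes are not independent replicates.

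Of 12189 genes considered, 515 were called higher in injured muscle (4.23%) and 696 higher in culture (5.71%), which is 9.94% in either direction. Calls per list below are to be read against this 9.94%, since a count near it says little about a list. The groups did not overlap for 65.8% of all genes considered, so a lack of overlap alone sets a gene hardly apart. Among the called genes, 197 were at least 8-fold and 25 at least 32-fold higher in injured muscle, against 258 and 48 in culture. The median difference of all genes was 0.01.

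**Figure D1:**
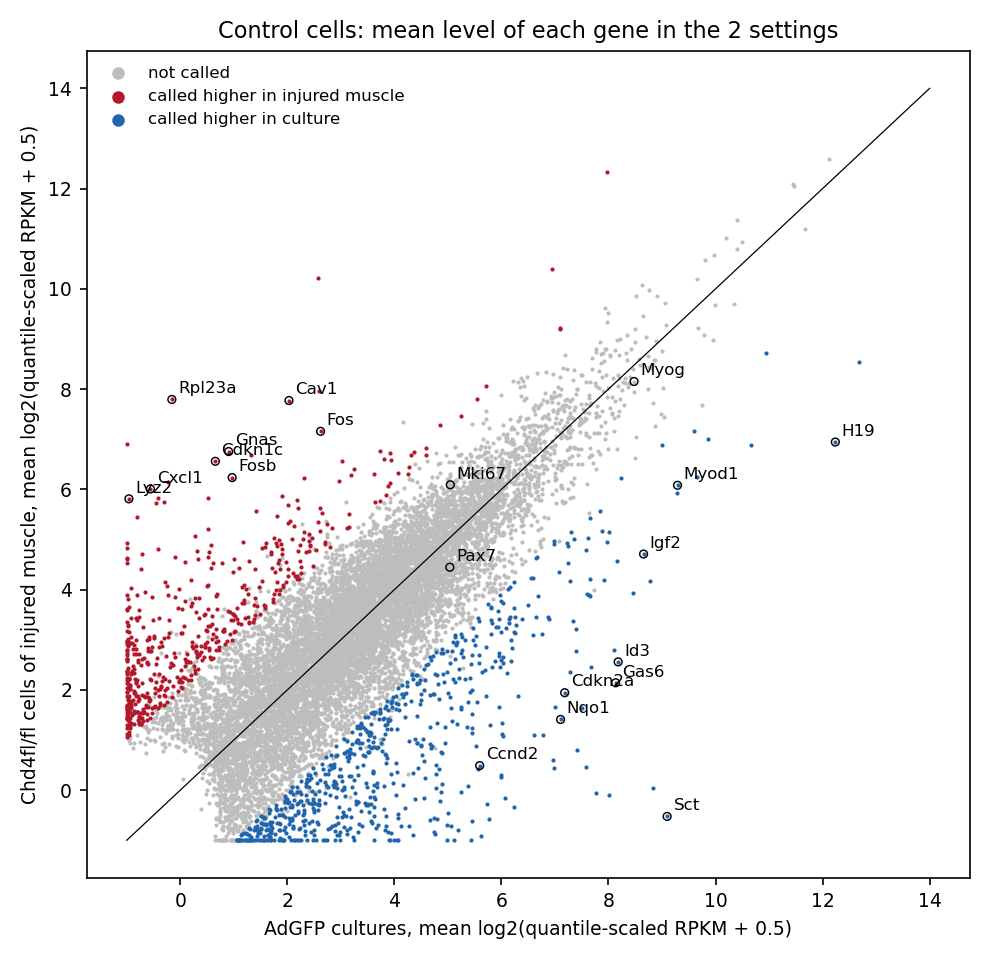
Mean log2(quantile-scaled RPKM + 0.5) of each of the 12189 genes considered in the AdGFP cultures (x axis) and in Chd4fl/fl cells of injured muscle (y axis), with the line of equal levels. Each point is a gene, red if called higher in injured muscle (515 genes), blue if called higher in culture (696 genes) and grey otherwise. Pax7, Myog and Mki67 lie among the grey points near the line, and Cav1, Cdkn1c and Fos lie far above it.

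The factors that set muscle identity differed between the settings by different amounts. Myod1, the factor that commits satellite cells to the myoblast state, stood at 79.0, 68.2, 54.2 and 61.6 RPKM in the injured libraries 1 to 4 and at 783, 591, 659 and 688 RPKM in cultures 1 to 4. Every culture lay far above every injured library, and the difference of -3.21 on the log2 scale was called. Myog, which drives the exit into differentiation, stood at 196, 332, 301 and 338 RPKM in injured muscle and at 208, 612, 480 and 320 RPKM in culture. Here the groups overlapped, with a difference of -0.33, and the lowest value of each group belonged to its replicate 1.

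Pax7, which marks satellite cells at rest and in the cycle, was present in both settings. It stood at 14.2, 18.2, 29.0 and 23.7 RPKM in injured muscle and at 29.9, 30.4, 35.3 and 37.1 RPKM in culture. In unscaled RPKM the cultures were all slightly higher, but on the scaled values the groups overlapped. The difference of -0.59 was far from the size asked for a call. Myf5, the other early myogenic factor, stood at 29.5, 28.6, 26.8 and 33.0 RPKM in injured muscle and at 9.64, 7.66, 7.42 and 30.4 RPKM in culture. Culture replicate 4 thus had the level of injured muscle while the other 3 cultures were well below it, and the gene was not called. Msc, which codes for the repressor musculin, stood at 20.0, 19.6, 35.0 and 21.1 RPKM in injured muscle and was listed at 0 in every library of the culture table, Cre-treated cultures included.

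Among 22 considered genes of satellite cell identity and surface, 5 were called higher in injured muscle and 2 higher in culture, with a median difference of 0.95, or -0.04 among members that overlap no other gene. The 5 were Msc, the caveolae protein Cav1, the secreted Chrdl2, the calcitonin receptor Calcr and the adhesion receptor Vcam1. Cav1 stood at 209, 192, 233 and 233 RPKM in injured muscle and at 9.82, 1.52, 1.46 and 8.75 RPKM in culture. The injured libraries were nearly equal, and cultures 2 and 3 were the lowest, for a difference of 5.74. Vcam1 stood at 57.4, 68.5, 54.9 and 82.4 RPKM against 14.2, 12.3, 12.8 and 22.1 RPKM, a difference of 2.19 with a wide gap between the groups.

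The genes called the other way were the proteoglycan Sdc3 and the phagocytic receptor Megf10, both present in satellite cells at rest and after activation. Sdc3 stood at 6.88 to 7.80 RPKM in injured muscle and at 81.9 to 126 RPKM in culture, a difference of -3.66. For Megf10 the difference was -2.72.

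The sort used α7-integrin and CD34, and their genes Itga7 and Cd34 differed by 0.92 and 0.98, short of a call. Itga7 ranged from 191 to 238 RPKM in injured muscle and from 95.2 to 132 RPKM in culture. M-cadherin, coded by Cdh15, had ranges of 50.2 to 93.3 and 72.7 to 87.1 RPKM, which overlap. Cd34 was low in both, at 5.17 to 8.05 and 2.14 to 5.82 RPKM. Ly6a, the gene of SCA1, which the sort used to remove cells, stood at 1.83, 8.53, 4.29 and 7.43 RPKM in injured muscle and at 4.01, 2.63, 1.82 and 1.69 RPKM in culture. Both groups had low levels that overlapped. Chd4 itself stood at 135, 126, 119 and 126 RPKM in injured muscle and at 76.2, 67.8, 70.8 and 85.5 RPKM in culture. All injured libraries were higher, but by less than 2-fold on the scaled values, with a difference of 0.81. None of the 20 considered genes of the NuRD complex and the CHD family was called, against 9.94% of all genes.

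**Figure D2:**
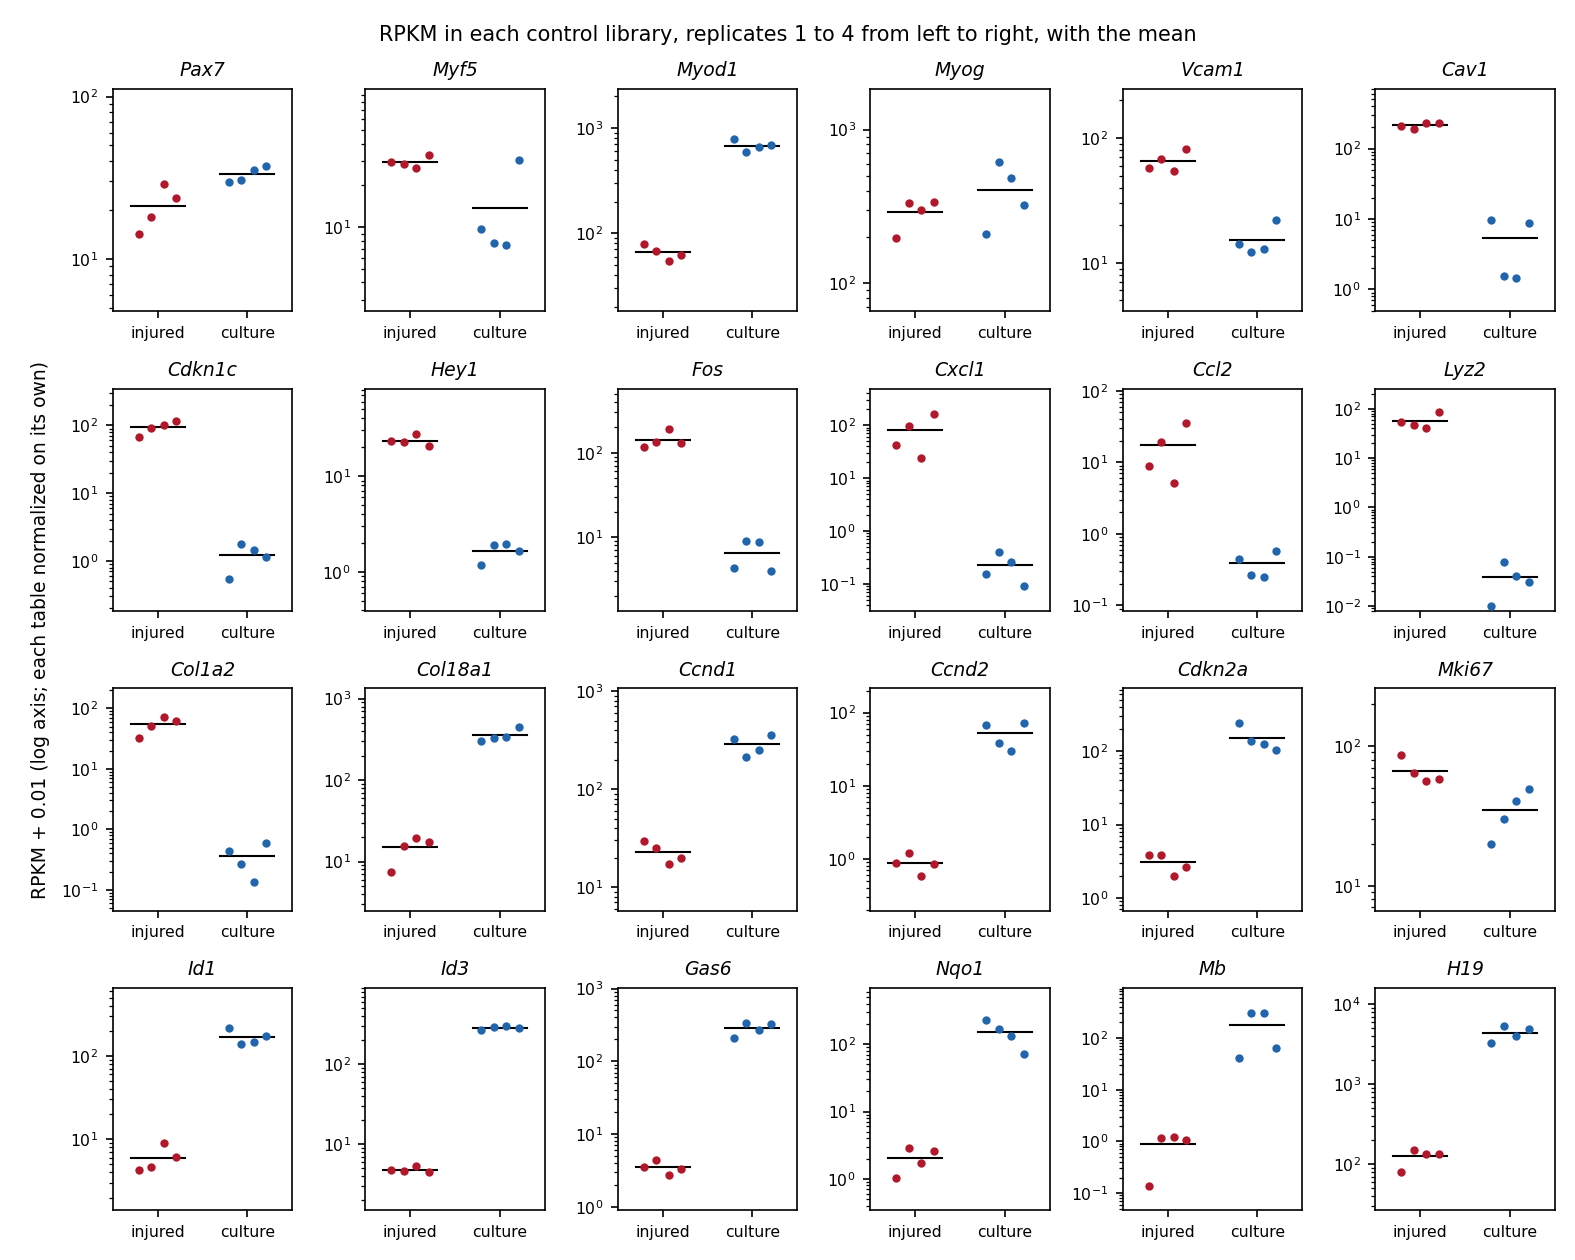
RPKM + 0.01 on a log axis for 24 genes, 1 panel per gene, in the 4 Chd4fl/fl libraries of injured muscle (red) and the 4 AdGFP cultures (blue). Points are replicates 1 to 4 from left to right and the bar is the group's mean. Myod1, Ccnd1 and Id3 separate cleanly toward culture, Cav1, Cdkn1c and Fos toward injured muscle, while Myog overlaps.

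A list of genes known from resting satellite cells leaned toward injured muscle, although the tissue was in full regeneration. Of 21 considered members, 8 were called higher in injured muscle and 1, Hes1, higher in culture, and the median difference was 1.18. Fos (4.54) is among the 8 and is counted again below with the immediate early genes, which respond to handling of tissue. Cdkn1c, which codes for the cell cycle inhibitor p57, stood at 66.5, 90.4, 103 and 116 RPKM in injured muscle and at 0.54, 1.77, 1.46 and 1.13 RPKM in culture. The cultures barely expressed it, and the difference was 5.91. The collagen gene Col5a3 (difference 4.47), Bmp6 (2.96), Rgs2 (2.54) and the angiopoietin receptor gene Tek (2.06) were also in this group, the last at low levels and lost as a call under 6 of the alternatives tried. Tek is also a marker of endothelium, whose 12 listed markers summed to 4.40 to 8.42 RPKM in injured muscle and 2.15 to 2.63 RPKM in culture, and the part of such cells was not tested.

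Notch signalling keeps satellite cells undifferentiated, and its target genes of the Hey and Hes families were not all called the same way. Hey1 stood at 23.1, 22.8, 27.3 and 20.9 RPKM in injured muscle and at 1.17, 1.90, 1.95 and 1.64 RPKM in culture. The groups were tight and far apart, with a difference of 3.62. Heyl was higher in injured muscle as well, at 13.7 to 35.1 against 1.17 to 5.51 RPKM (difference 2.71). Hes1 ran the other way, at 6.43, 6.91, 12.0 and 8.50 RPKM in injured muscle against 27.6, 83.0, 52.8 and 34.8 RPKM in culture. Its difference of -2.25 was lost as a call under 3 alternatives, 1 of them the omission of culture 2. The receptors Notch1 (1.18), Notch2 (0.79) and Notch3 (0.05), the ligand Dll1 (1.04) and the nuclear effector Rbpj (1.11) were not called.

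Genes of differentiation and fusion leaned toward culture. Of 28 considered members 5 were called higher in culture and 1 higher in injured muscle, with a median difference of -1.46. Besides Myod1, the genes called higher in culture were those of the slow and cardiac troponin C (Tnnc1), the slow troponin I (Tnni1), the embryonic myosin light chain Myl4 and skeletal actin (Acta1), the last lost as a call under the 3 other scalings. Tnnc1 stood at 9.40, 20.4, 20.7 and 20.4 RPKM in injured muscle and at 252, 782, 693 and 299 RPKM in culture. Injured replicate 1 was the lowest and cultures 2 and 3 the highest, and even the nearest libraries of the groups were more than 2-fold apart on the scaled values (difference -4.59).

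Tnnc2, the gene of the fast troponin C, was the member called the other way. It stood at 23.1, 49.4, 44.4 and 60.7 RPKM in injured muscle and at 0, 0.211, 0 and 0.161 RPKM in culture, a difference of 6.26. The gene was near 0 in the Cre-treated cultures of the same table too, at 0.042 to 0.264 RPKM. The fast isoform of troponin I, Tnni2, differed by only 1.17 and was not called. The fusion genes Mymk (-1.06) and Mymx (-0.67) were not called either.

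Markers of the mature myofibre gave 5 of 12 considered members called higher in culture and 1, Myoz1, higher in injured muscle. The 5 were Mb, Tcap, Cox6a2, Myh7 (lost with a pseudocount of 1) and Acta1, which the differentiation list also counts. The call of Acta1 was lost under the 3 other scalings, and it stood at 74.2 to 182 RPKM in injured muscle and 363 to 1630 RPKM in culture. Myoglobin, the oxygen store of muscle coded by Mb, stood at 0.13, 1.14, 1.20 and 1.05 RPKM in injured muscle and at 40.7, 311, 311 and 65.2 RPKM in culture. Its difference was -6.55, and cultures 2 and 3 were several times as high as cultures 1 and 4. The summed RPKM of the 16 listed myofibre markers was 379 to 724 in injured muscle and 1035 to 4188 in culture.

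Several muscle genes also varied within the cultures. Over the genes considered, 242 (1.99%) ranged 4-fold or more between the 4 cultures on the scaled values, and for 65 of them cultures 2 and 3 both lay at least 2-fold above cultures 1 and 4. For 16 genes the split ran the opposite way. Casq1, the calcium store protein of the sarcoplasmic reticulum, stood at 1.23, 43.7, 53.2 and 1.90 RPKM in cultures 1 to 4, and the adult fast myosin gene Myh1 stood at 7.88, 94.5, 96.1 and 11.4 RPKM. Both genes were named for this split after their values were seen, and neither was called between the settings. The injured libraries had 7.44 to 13.2 RPKM of Casq1 and 7.11 to 12.7 RPKM of Myh1, levels between the cultures' extremes.

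Sex-linked genes split the cultures in the same way. Xist, the RNA that silences an X chromosome in female cells, stood at 78.8, 0.0094, 0.022 and 96.5 RPKM in cultures 1 to 4. The Y-linked Ddx3y stood at 0.030, 24.9, 20.9 and 0.055 RPKM in them. In injured muscle Xist stood at 1.07, 82.7, 106 and 86.0 RPKM and Ddx3y at 28.3, 0, 0 and 0 RPKM. Cultures 2 and 3 and injured replicate 1 thus carried Y-linked transcripts and the other 5 libraries carried Xist. Injured replicate 1 had the lowest Mb, Tnnc1, Acta1 and Myog of its group and cultures 2 and 3 the highest Mb, Tnnc1, Acta1 and Myog of theirs. Both sexes occur in both settings, and the part of sex in any difference was not tested.

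Neither of the proliferation lists, mitosis and the replication machinery, held a called gene. Fen1, outside both lists, was called higher in injured muscle (4.00) and is among the genes reported as uncertain below. None of 30 considered genes of mitosis and none of 35 of the replication machinery was called, with median differences of 0.36 and 0.32. Of the 30 mitosis genes 4 had groups that did not overlap, and of the 35 replication genes 14, against 65.8% of all genes. The replication licensing factor Cdt1 stood apart toward culture, at 10.7 to 14.4 against 37.0 to 55.2 RPKM (difference -1.68). Mki67, the standard marker of cycling cells, stood at 86.5, 64.2, 56.6 and 58.5 RPKM in injured muscle and at 19.9, 30.2, 40.2 and 49.2 RPKM in culture. All injured libraries were above all cultures, yet culture 4 and injured replicate 3 were close (difference 1.05). For Top2a, the topoisomerase of dividing cells, ranges of 70.1 to 97.6 and 28.0 to 74.1 RPKM overlapped.

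Genes that gate entry into the cycle were called in part. Of 16 considered G1 cyclins and inhibitors of cyclin-dependent kinases, 5 were called higher in culture and none in injured muscle: all 3 D cyclins, Cdkn2a and Cdkn2b. Ccnd1 stood at 29.9, 25.2, 17.4 and 19.8 RPKM in injured muscle and at 326, 211, 253 and 357 RPKM in culture, a difference of -3.60 with no library near the other group. Ccnd2 was low in injured muscle, at 0.58 to 1.19 RPKM, against 30.0 to 71.7 RPKM in culture (difference -5.10). Ccnd3 differed by -2.85.

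Cdkn2a, the locus of the inhibitor p16 and of Arf, stood at 3.77, 3.78, 1.99 and 2.63 RPKM in injured muscle and at 243, 137, 125 and 104 RPKM in culture. It was the member with the widest difference, at -5.24, and culture 1 was the highest library. Its neighbour Cdkn2b, the gene of p15, stood at 1.47, 1.82, 5.03 and 5.69 RPKM in injured muscle and at 99.2, 35.4, 32.9 and 29.9 RPKM in culture. Culture 1 again stood well above the other cultures. Cdkn1a, the gene of p21, was high and similar in both settings (difference -0.18). Cdk6 (1.96) and Cdkn1b, the gene of p27 (1.87), came near to a call toward injured muscle.

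Feedback genes of FGF signalling were higher in culture wherever they were called. Of 16 considered genes of FGF and MAPK feedback, 3 were called higher in culture, with a median difference of -1.09. These were the phosphatases Dusp4 (-3.41) and Dusp6 (-2.12) and the inhibitor Spry4 (-2.32, lost with a pseudocount of 1), which FGF signalling induces and which restrain it. Dusp6 stood at 5.87, 7.52, 10.3 and 7.35 RPKM in injured muscle and at 44.4, 35.1, 33.4 and 40.7 RPKM in culture. The cultures agreed closely among themselves and lay well above all injured libraries. Spry1, the feedback inhibitor known for the return of satellite cells to rest, was not called (0.61).

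The BMP and Id genes formed the list with the most calls toward culture. Of 25 considered members of the TGF-beta and BMP list, 10 were called higher in culture and 1 higher in injured muscle, and the median difference was -1.41. Id proteins block the binding of Myod1 and its relatives to DNA and are direct targets of BMP signalling. Id3 stood at 4.76, 4.68, 5.40 and 4.50 RPKM in injured muscle and at 268, 292, 302 and 289 RPKM in culture, with hardly any spread within either group (difference -5.62). Id1 stood at 4.22, 4.64, 9.06 and 6.07 RPKM against 218, 139, 145 and 172 RPKM (difference -4.62), again with a wide gap. Id2 (-2.58) was called as well.

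The inhibitory Smad genes Smad6 (-4.13) and Smad7 (-2.72), which BMP and TGF-beta induce, were called higher in culture. So were the secreted antagonists Grem1 (-4.16), Nog (-3.61) and Fst (-3.10), the latent binding protein Ltbp3 (-3.29) and myostatin, Mstn (-2.64), at low levels. The ligand Bmp4 was the member called the other way, at 3.55 to 5.10 RPKM in injured muscle and 0 to 0.076 RPKM in culture (difference 3.40). Bmp2 had a difference of 2.34 without a call, because culture 1 lay near the injured libraries.

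Imprinted growth genes split by gene. Igf2, the growth factor of fetal and regenerating muscle, stood at 15.1, 27.6, 31.2 and 29.3 RPKM in injured muscle and at 303, 508, 489 and 379 RPKM in culture (difference -3.95). H19, the noncoding RNA from the same domain, stood at 79.8, 150, 136 and 135 RPKM and at 3320, 5345, 3998 and 4874 RPKM. Both genes were lowest in replicate 1 of each group and far higher in every culture, with a difference of -5.29 for H19. Of the 16 considered members of the list 4 were called higher in culture (Nnat, H19, Igf2 and Plagl1) and 4 higher in injured muscle (Cdkn1c, Gnas, Grb10 and Meg3, the last lost with a pseudocount of 1). Grb10, an adaptor that restrains insulin and IGF receptors, stood at 98.9 to 104 RPKM in injured muscle and at 1.74, 4.97, 5.61 and 0.170 RPKM in culture (difference 5.36). The receptors Igf1r (0.09) and Insr (0.13) were not called.

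Immediate early genes, which respond within minutes to signals and to handling of tissue, were called in part. Of 25 considered members 6 were called higher in injured muscle and none in culture, with a median difference of 0.52. Fos stood at 116, 135, 192 and 130 RPKM in injured muscle and at 4.34, 9.09, 8.81 and 4.00 RPKM in culture (difference 4.54). Fosb stood at 63.6, 77.0, 93.7 and 61.1 RPKM against 1.36, 1.53, 2.21 and 1.36 RPKM (difference 5.27). Injured replicate 3 was the highest for both, and no culture came near an injured library.

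The other 4 were Socs3 (3.77), the feedback inhibitor of cytokine receptors, Atf3 (2.66), Zfp36 (2.55) and Nr4a1 (2.14). Egr1, a classical member of the same response, stood at 53.2, 59.4, 86.3 and 64.6 RPKM in injured muscle and at 62.4, 71.9, 53.8 and 31.3 RPKM in culture. The groups overlapped. Jun was somewhat higher in every culture, at 78.5 to 97.0 against 49.0 to 63.5 RPKM (difference -0.53), and Junb differed by -1.16. Of 17 considered heat shock genes 2 were called in each direction. The inducible Hspa1a (2.26) and Hspa1b (2.06) were called higher in injured muscle at low levels, each lost in at least 1 alternative, and the small heat shock genes Hspb7 (-3.61) and Hspb6 (-2.05) higher in culture. In bulk samples, fewer cells that express a gene and less RNA per cell cannot be told apart.

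**Figure D3:**
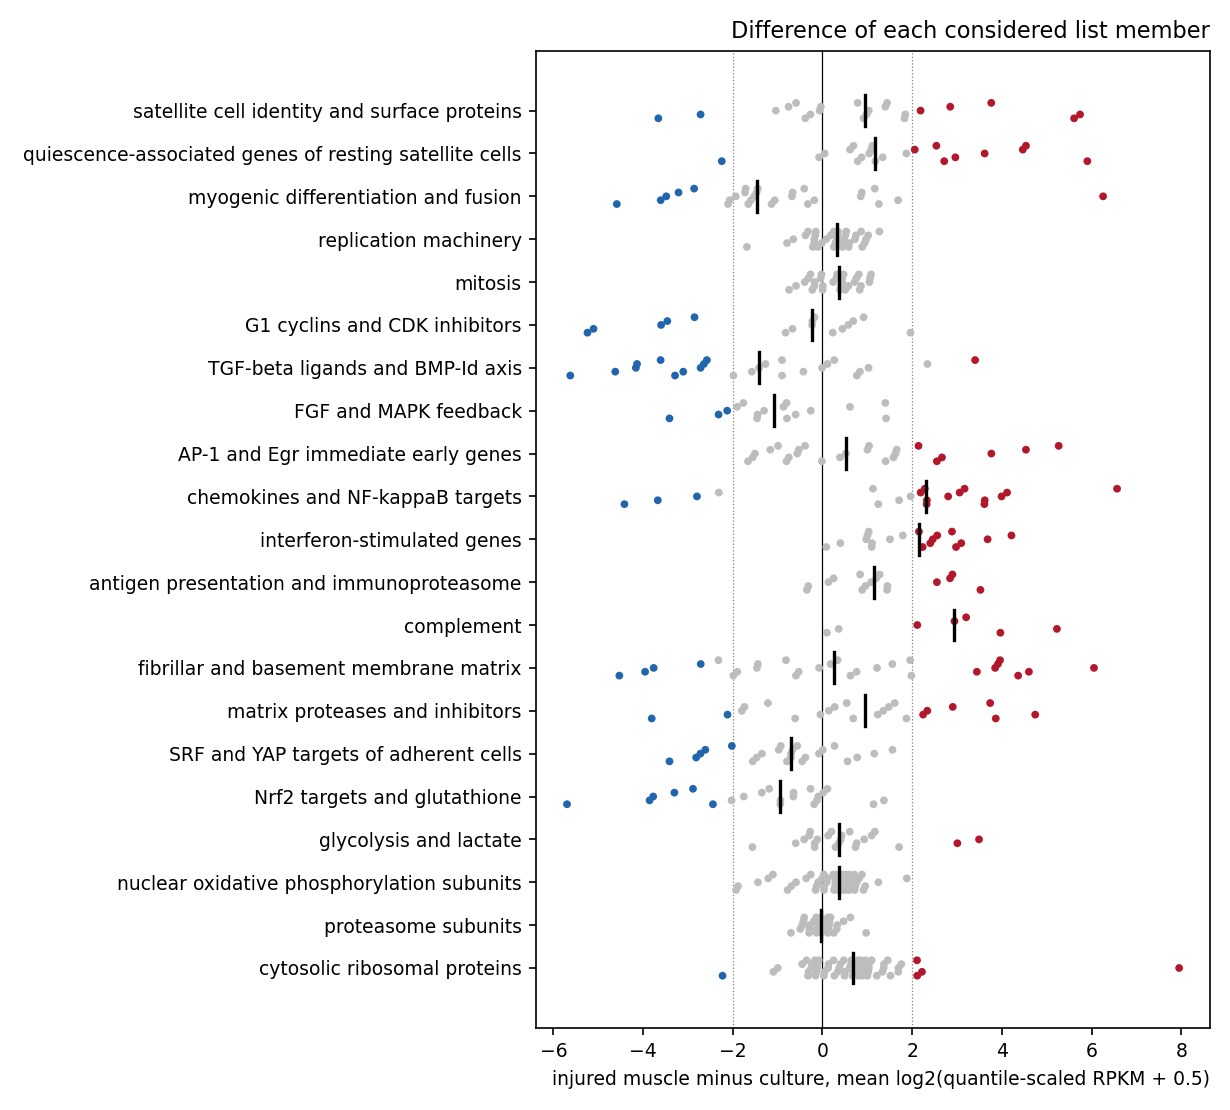
Difference of each considered member of 21 gene lists, injured muscle minus culture, in mean log2(quantile-scaled RPKM + 0.5). Points are genes, red if called higher in injured muscle, blue if called higher in culture and grey otherwise, the black bar is the list's median and dotted lines mark 4-fold. The interferon, chemokine and complement lists lie to the right, the BMP list and differentiation to the left, and mitosis, replication and the proteasome stay near 0.

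Chemokines and other targets of NF-kappaB, the transcription factor of inflammation, were mostly higher in injured muscle. Of 20 considered members 12 were called higher there and 3 higher in culture, with a median difference of 2.30. Promoters of this list were read for the kappaB motif on both strands over 250 bases before the start site, using RefSeq promoters of build GRCm38.p6. The motif was found in 8 of 15 members with a promoter (53.3%), in 6 of 12 members with a promoter that were called in either direction, Csf1 toward culture among them, and in 2 of 3 that were not called. Of 8806 promoters of genes considered 4.26% held it, and of all 27025 promoters 3.75%. A match describes these letters only. The 3 promoters below belong to genes with large differences toward injured muscle and are shown for where the match lies, with the matched letters in capitals, 5′ to 3′ on the strand of the gene.
Cxcl1, chr5:90890995-90891244, plus strand: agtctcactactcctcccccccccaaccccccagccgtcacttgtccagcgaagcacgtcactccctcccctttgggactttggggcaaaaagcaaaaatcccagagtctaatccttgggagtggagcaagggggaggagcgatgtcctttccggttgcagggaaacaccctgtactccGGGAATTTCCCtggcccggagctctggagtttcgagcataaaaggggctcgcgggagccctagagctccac
Cxcl2, chr5:90903649-90903898, plus strand: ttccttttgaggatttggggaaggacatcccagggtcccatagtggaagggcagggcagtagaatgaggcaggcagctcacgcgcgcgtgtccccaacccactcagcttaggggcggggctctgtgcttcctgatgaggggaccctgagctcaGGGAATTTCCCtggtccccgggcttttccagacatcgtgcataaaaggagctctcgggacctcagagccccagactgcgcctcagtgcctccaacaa
Nfkbia, chr12:55492648-55492897, minus strand: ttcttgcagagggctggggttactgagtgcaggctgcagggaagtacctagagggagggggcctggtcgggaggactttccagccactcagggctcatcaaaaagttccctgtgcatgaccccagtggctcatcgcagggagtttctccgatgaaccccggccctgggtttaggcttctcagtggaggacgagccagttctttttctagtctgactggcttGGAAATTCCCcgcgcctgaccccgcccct

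In Cxcl1 and in Cxcl2 the capitals cover 2 overlapping matches. The nearer match ends 60 bases before the start in Cxcl1 and 86 bases before it in Cxcl2, and the single match in Nfkbia ends 19 bases before it. Cxcl1, which attracts neutrophils, stood at 41.7, 95.5, 23.8 and 164 RPKM in injured muscle and at 0.144, 0.383, 0.251 and 0.0825 RPKM in culture. Its difference of 6.57 was among the widest of all genes, while the injured libraries themselves ranged several-fold, from replicate 3 to replicate 4. Cxcl2, its neighbour on the chromosome, stood at 4.81 to 12.0 RPKM in injured muscle and at 0 to 0.041 RPKM in culture (difference 3.99).

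Nfkbia, the inhibitor that NF-kappaB induces to end its own activity, stood at 82.2, 114, 78.8 and 148 RPKM in injured muscle and at 13.9, 17.3, 17.1 and 13.4 RPKM in culture (difference 2.80). Ccl2, which attracts monocytes, stood at 8.74, 19.2, 5.13 and 35.6 RPKM against 0.441, 0.260, 0.241 and 0.566 RPKM (difference 4.12). Replicates 2 and 4 were the higher injured libraries for Cxcl1, Ccl2 and Nfkbia alike. The members called higher in culture were the prostaglandin synthase Ptgs2 (-4.42), the macrophage growth factor Csf1 (-3.67) and Cxcl12 (-2.80), the ligand of Cxcr4. Ptgs2 stood at 1.69 to 3.62 RPKM in injured muscle and at 62.1 to 104 RPKM in culture.

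Interferon-stimulated genes gave 10 of 19 considered members called higher in injured muscle and none in culture, with a median difference of 2.15. The widest were the guanylate-binding protein Gbp2 (4.21), the antiviral enzyme Rsad2 (3.68), Iigp1 (3.09) and Gbp3 (2.98). Irf1, a transcription factor induced by interferon gamma, differed by 2.89. The viral sensors Ifih1 (2.40) and Ddx58 (2.23) and the effectors Isg15 (2.46) and Ifit1 (2.56) were called higher in injured muscle. Virus was given to the cultures only, and its part was not tested.

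Antigen presentation followed in part, with 4 of 16 considered members called higher in injured muscle. These were H2-K1, H2-D1 and H2-Q4, genes of the class I heavy chain, and the immunoproteasome subunit Psmb8, the last lost with a pseudocount of 1. H2-K1 stood at 32.1, 34.3, 29.6 and 42.5 RPKM in injured muscle and at 7.78, 5.17, 5.54 and 2.54 RPKM in culture (difference 2.84). The cultures were all below the injured libraries, with culture 4 the lowest. B2m, the light chain, reached 219 to 279 RPKM in injured muscle and 81.6 to 239 RPKM in culture and was not called. H2 genes are close copies of each other, so reads may be shared between them. Of 7 considered complement genes, 5 were called higher in injured muscle, among them Serping1 (5.23), the inhibitor of the first complement enzymes, and C3 (2.94), the central component.

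Markers of leukocytes moved with these lists. Of 20 listed markers of macrophages and other leukocytes 12 were considered, 10 were called higher in injured muscle and none in culture. Their summed RPKM was 107 to 189 in injured muscle, with replicate 4 the highest, and 7.45 to 12.6 in culture. Lyz2, the lysozyme of macrophages and neutrophils, stood at 53.7, 46.1, 41.6 and 85.3 RPKM in injured muscle and at 0, 0.067, 0.031 and 0.020 RPKM in culture (difference 6.77). Injured replicate 4 was also the highest for Cxcl1, Ccl2, Nfkbia and H2-K1.

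Adgre1, C1qa, C1qb, Tyrobp and H2-Aa were listed at 0 in all 4 cultures and reached at most 13.1 RPKM in injured muscle, in C1qb. Ptprc, the gene of the CD45 protein that the sort used to remove leukocytes, stood at 0.16 to 0.48 RPKM in injured muscle and at most 0.0021 RPKM in culture, below the level at which genes were considered. The summed markers of neutrophils were 0.79 to 2.17 RPKM in injured muscle, those of T, B and NK cells 0.43 to 2.01 and those of erythroid cells 0.23 to 1.15. The part of leukocyte RNA in the interferon, chemokine, antigen presentation and complement lists was not tested.

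**Figure D4:**
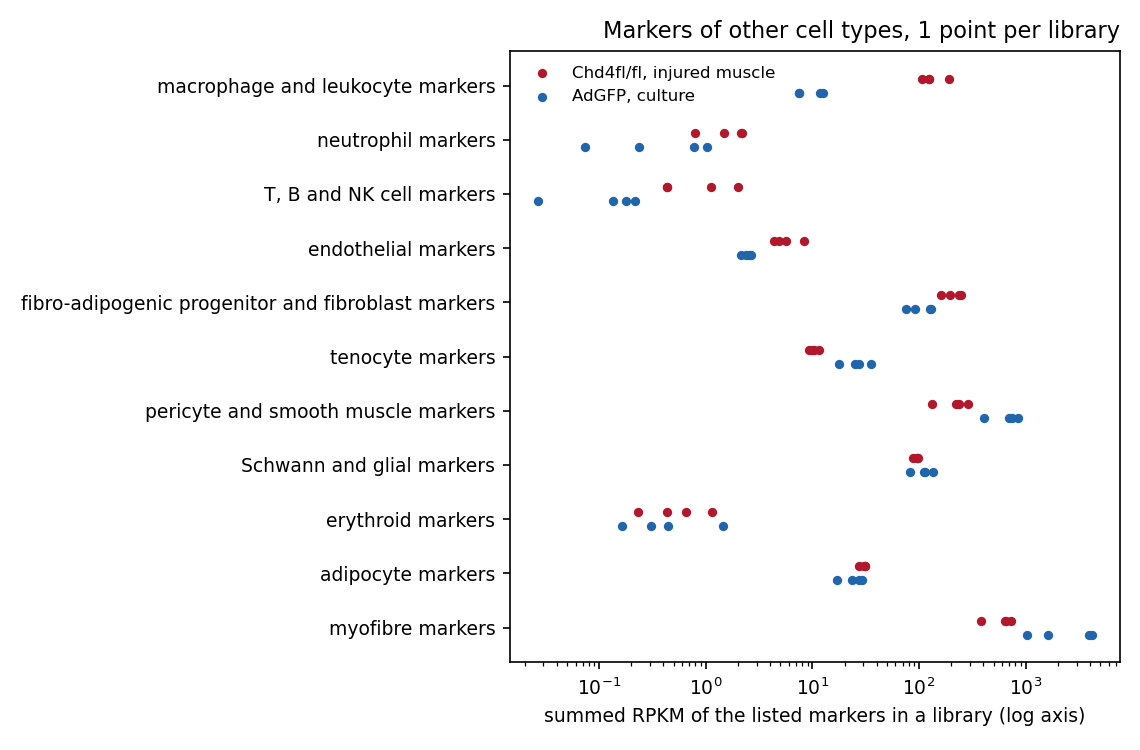
Summed RPKM, on a log axis, of the listed markers of 11 other cell types or states, 1 point per library, for Chd4fl/fl cells of injured muscle (red) and AdGFP cultures (blue). Macrophage markers sum to 107 to 189 RPKM in injured muscle and 7.45 to 12.6 in culture, and myofibre markers to 379 to 724 and 1035 to 4188.

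Matrix genes were called in both directions. Of 28 considered members 7 were called higher in injured muscle and 4 higher in culture, with a median difference of 0.26, or -0.08 among members with at least 5 RPKM. Those toward injured muscle were chains of the fibrillar collagen I (Col1a1 and Col1a2), all 3 listed chains of collagen VI, the proteoglycan decorin (Dcn) and periostin (Postn). Col1a2 stood at 32.0, 51.1, 71.7 and 61.6 RPKM in injured muscle and at 0.433, 0.261, 0.126 and 0.580 RPKM in culture (difference 6.05). Replicate 1 was the lowest injured library, and it was lowest for Col1a1, Col6a1 and Postn too.

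Those toward culture were basement membrane components and fibronectin: Col18a1 (-4.53), Col4a1 (-3.95), Col4a2 (-3.76) and Fn1 (-2.71). Col18a1 stood at 7.51, 15.4, 19.4 and 17.4 RPKM in injured muscle and at 305, 331, 343 and 447 RPKM in culture, with all cultures far above. The integrin subunits Itga6 (-4.66) and Itgb4 (-4.49), which pair into a laminin receptor, were called higher in culture and were the only 2 of 11 considered integrin genes with a call. Itga6 stood at 1.40 to 2.26 RPKM in injured muscle and at 46.2 to 85.1 RPKM in culture.

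Matrix proteases and their inhibitors gave 6 of 22 considered members called higher in injured muscle and 2 in culture. Timp3 (4.74), Adam8 (3.86), Adamts15 (3.74) and Adamts1 (2.90) were the widest toward injured muscle, and Mmp23 (-3.81) and Timp1 (-2.12) were those toward culture. Of 24 considered targets of SRF and YAP, factors that respond to actin and to a stiff support, 5 were called higher in culture and none in injured muscle. Ankrd1, a common readout of YAP, stood at 58.4, 76.2, 80.6 and 77.5 RPKM in injured muscle and at 1085, 1005, 854 and 721 RPKM in culture (difference -3.41). Cyr61 (-0.56) and Ctgf (0.77), targets of the same factors, were not called.

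Markers of fibro-adipogenic progenitors, the matrix-forming cells of muscle, moved with the collagens. Of 14 listed markers 8 were considered and 5 called higher in injured muscle (Col1a2, Dpt, Dcn, Col1a1 and Lum), 3 of which are matrix genes counted above. Dpt and Lum were listed at 0 in all 4 cultures. The list summed to 160 to 249 RPKM in injured muscle and 76.1 to 129 RPKM in culture. Pdgfra, the receptor that defines these cells, stood at 0.82 to 1.10 RPKM in injured muscle and 0.355 to 0.510 RPKM in culture, and Pi16, Clec3b and Dpp4 were at most 1.93 RPKM in any library. The part of such cells in the collagen difference was not tested.

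Pericyte and smooth muscle markers summed to 132 to 285 RPKM in injured muscle and to 408 to 838 RPKM in culture, with Rgs5 (-4.30) the sole call among 6 considered. Acta2, smooth muscle actin, made up much of these sums at 105 to 247 and 322 to 750 RPKM and was not called (-1.47). Among Schwann cell markers Ngfr (4.22) was called higher in injured muscle, while Sox10 was at most 0.31 RPKM in every library.

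Among the stress lists, targets of Nrf2 were called toward culture only. Of 22 considered targets of Nrf2, the sensor of oxidants, 6 were called higher in culture and none in injured muscle, with a median difference of -0.94. Nqo1, the quinone reductase, stood at 1.02, 2.85, 1.72 and 2.55 RPKM in injured muscle and at 228, 169, 131 and 70.3 RPKM in culture (difference -5.70). Hmox1, the haem oxygenase, stood at 8.84, 12.7, 20.8 and 13.9 RPKM against 296, 260, 248 and 88.2 RPKM (difference -3.77). Culture 4 was the lowest culture for both, still well above injured muscle. The antioxidant response element, searched as TGACNNNGC on both strands in the same window, was in 4 of 18 promoters of the list (22.2%) and in 12.2% of promoters of genes considered. Called members had it in 1 of 5 promoters and the others in 3 of 13.

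Glycolysis had 2 calls of 23 considered, near the 9.94% of all genes. Both were toward injured muscle: the glucose transporter Slc2a3 (3.49) and phosphofructokinase Pfkp (3.01). Ldha (-0.11) and Pkm (0.20) were level. Of 21 considered targets of p53, 4 were called higher in culture (Gdf15, a call lost under 4 alternatives, Phlda3, Ccng1 and Bax) and 2 in injured muscle (Fas and Sesn1), while Mdm2 (-0.33) and Cdkn1a (-0.18) did not separate. Cholesterol and fatty acid synthesis gave 1 call of 27, Scd1 (2.46), which was lost under 4 alternatives.

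Genes outside the lists headed the ranking toward culture. Sct, which codes for the gut hormone secretin, stood at 0, 0, 1.25 and 0 RPKM in injured muscle and at 382, 633, 586 and 733 RPKM in culture, the widest difference among the named genes (-9.62). The clone-named gene CT010467.1 came next, at 0.26 to 0.95 RPKM in injured muscle and 225 to 798 RPKM in culture (difference -8.78). It was not matched to a RefSeq gene by symbol. In the Chd4dPax7ER libraries it was near 0 as well, at 0.40 to 0.84 RPKM, so it is uncertain as a difference between cells. Gas6, a ligand of TAM receptors, stood at 3.53, 4.39, 2.70 and 3.34 RPKM against 207, 340, 273 and 321 RPKM (difference -5.99). Above Gas6 ranked the carbonic anhydrases Car3 (-6.57) and Car8 (-6.54) and the prostaglandin synthase Ptgs1 (-6.35). So did the membrane protein Tmem119 (-6.21), the granzyme Gzme (-6.06) and Mb (-6.55), a list member described above. The water channel Aqp5 (-5.98) and the phospholipase Pla2g4a (-5.78) came below Gas6. Pla2g4a, Ptgs1 and Ptgs2 act in sequence or side by side in prostaglandin synthesis.

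Transcription factor genes foreign to limb muscle were among the culture genes, chosen here after their values were seen. Gata4, known from heart and gut, was listed at 0 in all 4 injured libraries and at 11.8 to 27.1 RPKM in culture, and Dlx2, known from forebrain and face, at 0 and at 10.9 to 23.6 RPKM. Dlx2 was at 0 in all 8 libraries of the injury table, so it is uncertain as a difference between cells. Outside the lists, injured muscle had high levels of the calpain relative Capn6, at 35.8 to 71.3 RPKM against 0.106 to 0.596 RPKM (difference 6.17), and of Ctss, a cathepsin of phagocytes (5.61). Ndrg1, a hypoxia-induced gene, stood at 51.8 to 61.2 RPKM in injured muscle and at 0.674 to 1.32 RPKM in culture (difference 5.31), and Car12 (2.30, lost with a pseudocount of 1) was called the same way. Of the 16 considered hypoxia genes 1, Egln3 (-2.20), was called higher in culture, and Vegfa (-1.27), Adm (-0.45) and Bnip3 (-0.19) were not called.

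Genes that most cells need were read as a check on setting the 2 tables side by side. Of 148 considered genes for ribosomal proteins, the proteasome and nuclear oxidative phosphorylation, 5 were called (3.38%, against 9.94% of all genes), and all 5 code for ribosomal proteins (Rpl23a, Rps27a, Rps3a1 and Rps25 toward injured muscle and Rplp1 toward culture, the last lost under 2 other scalings). Their list medians were 0.69 for ribosomal proteins, 0.38 for oxidative phosphorylation and -0.03 for the proteasome, the last turning positive under the 3 other scalings. The groups did not overlap for 49 of 63 ribosomal, 43 of 54 oxidative phosphorylation and 16 of 31 proteasome genes, against 65.8% of all genes. A shift between the tables of less than 4-fold would not show as a call.

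Single genes broke from these lists. Rpl23a stood at 232, 221, 232 and 207 RPKM in injured muscle and at 0.502, 0.349, 0.417 and 0.396 RPKM in culture, the widest difference toward injured muscle (7.95), although its product is needed in every ribosome. Ilk, the integrin-linked kinase, stood at 62.3 to 72.7 RPKM against 0.239 to 0.451 RPKM, and Gnas, the stimulatory G protein, at 99.1 to 112 against 1.05 to 1.70 RPKM. Med10, a subunit of the Mediator complex, stood at 26.0 to 28.2 RPKM in injured muscle and was listed at 0 in all 8 libraries of the culture table. All 4 genes had the same near-absence in the Cre-treated cultures. Tnnc2, described above, was also near 0 in the whole culture table. The RefSeq spans of Rpl23a, Ilk and Gnas overlap other genes and that of Med10 does not, against 46.4% of all considered genes with a span. These values, and those of Cox20, Snrpf, Fen1, Msc, Tnnc2, Rps3a1, Dlx2 and CT010467.1, are reported as uncertain as differences between cells. How the tables counted reads in overlapping or copied genes was not tested.

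The mitochondrial genome showed the same unevenness. Apart from mt-Nd6 (-3.78), which lies on the other strand, its protein genes are cut from 1 long shared transcript, yet their differences ran from -3.24 for mt-Co3 to 0.98 for mt-Nd2. Of all 13 genes 4 were called higher in culture. mt-Co3 stood at 0.56 to 1.01 RPKM in injured muscle and 8.16 to 16.2 RPKM in culture, while mt-Co1 stood at 4498 to 6124 and 1505 to 3220 RPKM. Gapdh, which has many processed copies in the genome, was listed at 5.74 to 7.87 and 2.71 to 4.45 RPKM, against 536 to 559 and 496 to 621 RPKM for Pkm. Of 4 considered replication-dependent histone genes 1 was called, higher in culture (median difference -1.81). Of 5 considered nuclear-retained noncoding RNAs 1 was called, higher in injured muscle (median difference 1.95). Whether the libraries of the settings captured classes of RNA differently was not tested.

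The same contrast can be made in libraries that were not used above, the 4 from Chd4dPax7ER mice and the 4 cultures given Cre (AdCRE), in which Chd4 was to be deleted. Of 12415 genes considered there, 541 (4.36%) were called higher in injured muscle and 625 (5.03%) higher in culture, 9.39% in either direction. Of the 515 genes called higher in injured muscle in control cells 359 were called the same way, which is 69.7% of the control list and 66.4% of the other. Of the 696 toward culture 485 were, which is 69.7% and 77.6%. No gene was called in the opposite direction. These libraries come from the same 2 tables, so what a table does to a gene is shared.

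By list, all 11 calls of the matrix list, all 6 of the immediate early list, all 5 of the G1 list and 14 of 15 of the chemokine list were also made in the Chd4-deleted libraries, and so were 10 of 11 of the BMP list. Of the 6 myofibre markers called in control cells 1 was called there, and of the 6 differentiation genes 3. Of the 10 interferon calls 7 were made there, but not those of Ifit1, Isg15 and Ifih1. Mb differed by -6.55 in control cells and -3.67 in Chd4-deleted cells, Gas6 by -5.99 and -3.09, Hmox1 by -3.77 and -1.14 and the arginine enzyme Ass1 by -2.80 and -0.34. Whether these pairs of differences differ was not tested.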

How the data were processed

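Expression was deposited by the authors as RPKM, in 2 tables of 46078 genes, 551 of them without a symbol: 1 for the sorted cells and 1 for the cultures. The tables were joined on the Ensembl identifier. The submitters' processing notes name builds GRCm38 and mm10 and, with no role for any of them, the aligner HISAT2 2.1.0, the trimmer cutadapt 1.18, DESeq2 3.6, Picard 2.18.15 and FastQC 0.11.8, besides the peak tools MACS2 2.1.2 and HOMER. Neither the counting program nor gene lengths or read totals are named in the labels. In the injury table values are rounded to 2 decimals.

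The 8 control libraries were quantile-scaled over all genes and taken as log2(value + 0.5) (Python 3.11.15, numpy 2.4.6, pandas 2.3.3, scipy 1.17.1, matplotlib 3.10.9). Genes with at least 1 RPKM in at least 4 of 8 libraries were considered, or in 3 of the 7 when a library was left out. The call rule, at least 4-fold with a 2-fold gap between the groups, was run on simulated libraries. These held planted changes, noise and a common factor for a whole group. They held no effect of a table on single genes, so the simulation cannot say how the rule does across tables. Levels in the text are unscaled RPKM, and differences are on the scaled log2 scale. No test was run across the tables.

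The comparison, its members and the 47 gene lists were chosen with earlier results of these data known. Named genes are the 15 with the widest called difference in each direction and a mean of at least 10 scaled RPKM in the higher group, leaving out unnamed gene models, pseudogenes, small RNAs and mitochondrial genes, up to 4 members of each list by size of difference, and a fixed set of myogenic, sort-marker and cell cycle genes. The filter on names did not cover the clone-named CT010467.1, which is thus among the 15 toward culture. Further members were chosen after their values were seen. A gene listed at 0 in a whole group is given without a fold change. The RefSeq table of GRCm38.p6 supplied promoters, gene spans and gene types, and matched 11676 of the 12189 genes by symbol. The 8 ATAC-seq samples were not analysed here.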

Additional observations from a re-analysis of the deposited data

Results flagged for a closer look

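Each group of 4 libraries behind a gene printed library by library, and behind each summed marker list, was checked for a library far from the other 3. Of 116 such groups 11 had one. Chance gives about 1 in 20 for independent groups chosen beforehand. Some of these genes were chosen after their values were seen, so that rate does not apply here.

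In injured muscle, replicate 1 was the lowest for Tnnc1 at 9.40 RPKM, against 20.4 to 20.7 in the others, and for Mb at 0.13 RPKM, against 1.05 to 1.20. It was the only one of the 4 with Ddx3y, at 28.3 RPKM. Replicate 3 was the highest for Msc at 35.0 RPKM, against 19.6 to 21.1, for Grb10 at 104 RPKM, against 98.9 to 99.7, and for Sct at 1.25 RPKM, against 0 in the others. Replicate 4 had the lowest summed Schwann cell markers, 87.6 RPKM against 95.8 to 96.8, and the lowest summed adipocyte markers, 27.6 RPKM against 30.7 to 31.2.

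Among the cultures, replicate 4 was the highest for Myf5 at 30.4 RPKM, against 7.42 to 9.64. Replicate 1 was the highest for Cdkn2b at 99.2 RPKM, against 29.9 to 35.4, and for Gpnmb, a glycoprotein of lysosomes, at 110.2 RPKM, against 4.68 to 5.63.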

How the results depend on the processing

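No paired analysis was possible because the comparison spans 2 tables that were normalized separately and its result comes from no test. The main counts were 515 genes toward injured muscle and 696 toward culture. With a pseudocount of 1 there were 337 and 495, and with at least 5 RPKM asked in 4 libraries 265 and 464 of 8397 genes. Asking only 2-fold without overlap gave 1803 and 2070, and asking 8-fold gave 197 and 258. Chosen after seeing the data, protein-coding genes alone gave 395 and 517, and those that overlap no other gene 218 and 310 of 5734 genes, with fewer genes considered in each. Scaling to a common sum gave 438 and 808 with a median of all genes at -0.10, or 482 and 752 without mitochondrial genes, and median-of-ratios scaling gave 473 and 757. A pseudocount of 0.1 gave 651 and 936, and no filter 533 and 705. Leaving out each library in turn gave 526 to 580 toward injured muscle and 703 to 754 toward culture. No named gene reversed its direction among those called. Of 151 called named genes 133 kept the call in every scaling, pseudocount, filter and leave-one-out run in which they were considered, and 18 lost it in at least 1, among them Acta1, Car12, Gdf15, Hes1, Hoxb4, Hspa1a, Hspa1b, Meg3, Myh7, Psmb8, Rplp1, Scd1, Scx, Spry4, Tek, mt-Nd3 and mt-Nd4l. Scx lost it without culture 3, where the cause was not tested. RPKM tables without read counts give no counting error, and small differences between the tables cannot be read.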

Other observations

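Several secreted and adhesion genes outside the lists separated the settings and were chosen here after their values were seen. Toward culture, Spp1, the matrix cytokine osteopontin, stood at 328 to 415 RPKM in injured muscle and at 5528 to 9453 RPKM in culture (difference -4.15). Cdh11, a cadherin of mesenchymal cells, reached 0.71 RPKM at most in injured muscle and 20.7 to 46.7 RPKM in culture, Serpinb2, an inhibitor of plasminogen activators, 0.62 RPKM at most and 11.2 to 33.8 RPKM, and the netrin receptor Unc5b 1.29 to 1.83 and 64.7 to 152 RPKM. Toward injured muscle, the growth factor Gdnf stood at 23.1 to 33.8 RPKM against 0.353 to 1.05 RPKM in culture (difference 4.46), the alarmin Il33 at 27.0 to 46.6 against 0.044 to 2.77 RPKM (4.80) and Apoe, a lipid carrier, at 17.6 to 29.6 against 0.496 to 2.54 RPKM (3.92). Il33 was low in cultures 2 and 3 and higher in cultures 1 and 4.

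Rps3a3, a near copy of a ribosomal protein gene, had the widest range within the injured group. It stood at 191.0, 0.80, 191.9 and 0.74 RPKM in injured replicates 1 to 4 and at 197.6, 221.8, 232.1 and 202.9 RPKM in cultures 1 to 4. Injured replicates 2 and 4 stood apart from the other 6 libraries. The related Rps3a1, called above toward injured muscle, stood at 497, 611, 483 and 581 RPKM in injured replicates 1 to 4, highest in replicates 2 and 4. Whether reads were shared between these copies was not tested.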
